A study of Mus musculus with 8 samples.

Results

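The HOX genes are the homeobox transcription factor genes of the HOXA, HOXB, HOXC and HOXD clusters. Members were taken by symbol (Hoxa, Hoxb, Hoxc or Hoxd followed by a number) from a table of TPM values, which gave 39 members among 55414 genes. They comprise 11 HOXA genes on chromosome 6, 10 HOXB genes on chromosome 11, 9 HOXC genes on chromosome 15 and 9 HOXD genes on chromosome 2. TPM (transcript abundance scaled by transcript length and to the same total in each library) lets levels of different genes be set beside each other.

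The libraries came from mpkCCD cells (clone 11), a single clone of a mouse cortical collecting duct line derived from SV-PK/Tag transgenic mice and grown on permeable supports. All cells received 0.1 nM dDAVP, a vasopressin analog selective for the V2 receptor, and a minimal medium with dexamethasone. The 4 libraries called dDAVP alone had the vehicle, and the 4 called Tolvaptan plus dDAVP had 50 nM tolvaptan, an antagonist of that receptor, for 24 h. The labels do not say whether the replicates are separate cultures, so p-values measure only the spread between these libraries.

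HOX proteins bind DNA through a homeodomain, usually together with PBX, MEIS or PKNOX cofactors of the TALE homeodomain class, and give cells a position along the body axis. In embryos the genes at the low-numbered end of a cluster are switched on earlier and further forward than those at the high-numbered end, and Polycomb proteins keep the remaining genes silent while Trithorax proteins keep active genes on. In the kidney, Hoxb7 marks the ureteric bud and the collecting ducts that grow from it, whereas the genes of paralog group 11 act in the metanephric mesenchyme around the bud.

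Each library summed to 1000000 TPM, had between 9203 and 9422 genes over 10 TPM, and was distinct from every other library. Aqp2, the water channel gene induced by vasopressin, stood at 2828 to 3211 TPM with dDAVP alone and at 237 to 339 TPM with tolvaptan, without overlap. Of the collecting duct markers, Gata3 had a mean of 258 TPM and Wnt7b 231 TPM with dDAVP alone, while Elf5 was at 0.14 TPM or less in every library. The mesenchyme and stroma markers Six2, Gdnf, Foxd1 and Pdgfrb did not exceed 0.14 TPM in any library, the intercalated cell markers Slc4a1 and Slc26a4 did not exceed 0.04 TPM, and Foxi1 did not exceed 0.36 TPM. Other genes of those lists were present, such as Eya1 at 22.5 to 30.9 TPM and Atp6v1b1, a proton pump subunit, at 42.3 to 77.6 TPM. Calls on these lists are at an adjusted p under 0.05 by limma over genes with a mean of 0.5 TPM or more. Of all genes in that fit, 4.25% were called lower and 7.13% higher, and the list counts are a description. Of 24 ureteric bud and collecting duct genes 16 were tested, and 4 fell (Krt18, Aqp2, Avpr2 and Krt8) and 1 rose (Pax8). Of 16 mesenchyme and stroma genes 4 were tested, Cited1 fell and Osr1 rose, and the summed level of the list was 95.6 to 100.5 TPM with dDAVP alone and 53.6 to 60.6 TPM with tolvaptan, while Cited1 alone went from a mean of 51.7 to 5.16 TPM. Of 11 intercalated cell genes 5 were tested and Slc4a9 fell, and of 11 genes of other nephron segments only Lrp2 was tested, and it rose. The part of these differences in the HOX values was not tested. In bulk RNA, fewer cells of a kind and less RNA per cell cannot be told apart.

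Where expression stopped along a cluster is shown first, with the promoters on either side of the stop. In HOXD, the step lay between Hoxd10, at a mean of 26.4 TPM over the 8 libraries, and Hoxd11, which did not exceed 0.11 TPM. In HOXA it lay between Hoxa10, at 31.1 TPM, and Hoxa11, which did not exceed 0.06 TPM. The windows below run from 250 bases before to 50 bases after a RefSeq start on mouse build GRCm38.p6, with TGACG or its reverse complement CGTCA, the core of the site bound by the cAMP response factor CREB, in capitals. They include Hoxd8, the most abundant HOXD gene, and Hoxd3, a gene that rose with tolvaptan. Their places are chr2:74711743-74712042 for Hoxd3, chr2:74704365-74704664 for Hoxd8, chr2:74691641-74691940 for Hoxd10 and chr2:74682073-74682372 for Hoxd11, all on the plus strand, and chr6:52234890-52235189 for Hoxa10 and chr6:52245761-52246060 for Hoxa11, both on the minus strand. Hoxd11 and Hoxa10 each have another RefSeq start, not printed.
Hoxd3: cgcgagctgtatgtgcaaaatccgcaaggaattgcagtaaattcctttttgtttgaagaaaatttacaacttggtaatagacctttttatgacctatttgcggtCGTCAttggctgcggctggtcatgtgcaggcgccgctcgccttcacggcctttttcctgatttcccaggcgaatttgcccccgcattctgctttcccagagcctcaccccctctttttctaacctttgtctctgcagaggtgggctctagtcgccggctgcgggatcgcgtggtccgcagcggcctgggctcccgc
Hoxd8: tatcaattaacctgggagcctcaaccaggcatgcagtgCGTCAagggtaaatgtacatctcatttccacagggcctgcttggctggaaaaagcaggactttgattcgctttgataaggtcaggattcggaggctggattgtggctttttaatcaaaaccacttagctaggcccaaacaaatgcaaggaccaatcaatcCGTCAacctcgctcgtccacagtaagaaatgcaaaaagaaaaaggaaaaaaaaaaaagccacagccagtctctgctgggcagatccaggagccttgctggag
Hoxd10: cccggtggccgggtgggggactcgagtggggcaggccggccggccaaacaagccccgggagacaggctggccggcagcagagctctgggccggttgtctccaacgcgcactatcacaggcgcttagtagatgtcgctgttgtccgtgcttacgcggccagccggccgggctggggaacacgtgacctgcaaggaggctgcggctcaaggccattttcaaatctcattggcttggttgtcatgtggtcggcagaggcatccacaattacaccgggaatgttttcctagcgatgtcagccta
Hoxd11: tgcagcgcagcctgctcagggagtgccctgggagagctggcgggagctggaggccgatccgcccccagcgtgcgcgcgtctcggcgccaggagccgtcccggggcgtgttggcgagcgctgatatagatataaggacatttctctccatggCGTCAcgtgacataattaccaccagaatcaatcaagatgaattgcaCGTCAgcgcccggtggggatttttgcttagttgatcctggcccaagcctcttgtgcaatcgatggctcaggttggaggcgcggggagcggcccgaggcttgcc
Hoxa10: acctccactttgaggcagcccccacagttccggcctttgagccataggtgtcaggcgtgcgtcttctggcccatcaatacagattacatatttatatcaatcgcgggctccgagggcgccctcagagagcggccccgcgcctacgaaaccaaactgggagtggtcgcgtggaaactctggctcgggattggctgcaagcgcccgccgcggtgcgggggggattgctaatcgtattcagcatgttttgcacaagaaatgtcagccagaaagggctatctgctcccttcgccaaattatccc
Hoxa11: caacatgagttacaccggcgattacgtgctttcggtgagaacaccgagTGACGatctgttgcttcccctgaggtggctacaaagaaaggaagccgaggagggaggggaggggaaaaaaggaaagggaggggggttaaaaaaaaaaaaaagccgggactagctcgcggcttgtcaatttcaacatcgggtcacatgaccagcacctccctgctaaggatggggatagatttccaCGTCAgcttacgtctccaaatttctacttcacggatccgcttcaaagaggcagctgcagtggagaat

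The core site stood in both genes just past the stop, with 2 copies each in the printed windows of Hoxd11 and Hoxa11. It was absent from the other Hoxd11 window and from every window of Hoxd10 and Hoxa10. The windows of Hoxd12, Hoxd13 and Hoxa13, also near 0 TPM, had 0 copies, and that of the abundant Hoxd8 had 2. RefSeq windows were found for 22 of the 39 members (24 windows), among them 9 of the 15 members over 10 TPM, but not for Hoxb7 or Hoxb9. TGACG, sought on both strands, was in 7 of the 24 windows (29.2%) against 20.8% of all 32851 windows. By level, it was in 3 of 10 windows of members over 10 TPM (30%) and in 3 of 9 of members under 0.5 TPM (33.3%). Of the 5 windows of members between these levels, 1 had it (20%). The full site TGACGTCA was in 0 of the 24 and in 1.79% of all windows. TGATTNAT, a joint HOX and PBX site, was in 2 of the 24 (8.33%) against 3.22% of all, namely in Hoxa2 and Hoxd11. TATAAA was in 4 of the 24 (16.7%) against 13.6% of all, and TGANTCA, an AP-1 site, in 1 of the 24 (4.17%) against 7.81% of all. HOX windows had a median observed to expected CpG ratio of 0.626 against 0.384 over all windows, and it was 0.585 for members over 10 TPM and 0.787 for members under 0.5 TPM. These are letter matches and base composition only.

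Of the 39 members, 15 exceeded 10 TPM in at least 1 library, 7 more had a mean of 0.5 TPM or more, and 17 were under 0.5 TPM. The shares were 38.5% of members over 10 TPM against 17.9% of all genes, and 56.4% with a mean of 0.5 TPM or more against 26.6% of all genes. HOXB had 6 genes over 10 TPM, HOXD 5, HOXA 4 and HOXC 0. The map by cluster and paralog group covers dDAVP alone. It shows levels over 10 TPM in groups 2 and 4 to 10 of the 3 active clusters, with gaps, and in Hoxb13 beyond them. Hoxd3 was at 8.98 TPM there, and the HOXC genes were near 0.

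**Figure D1:**
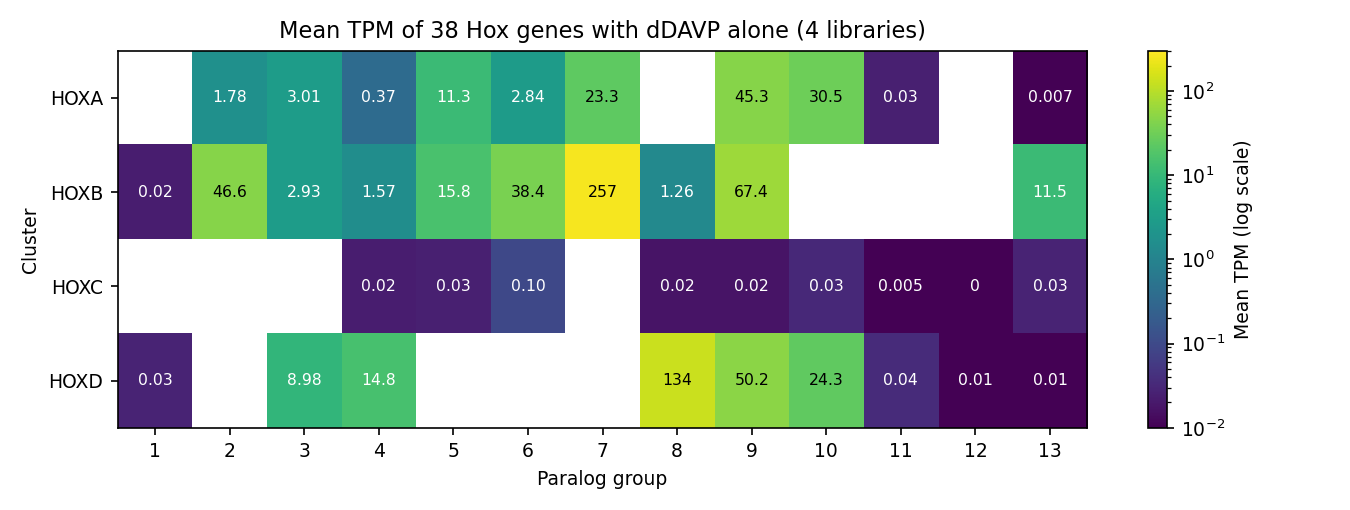
Mean TPM of 38 HOX genes over the 4 dDAVP alone libraries, with cluster on the vertical axis, paralog group on the horizontal axis and a log colour scale; white cells have no gene plotted. Hoxb7 at 257 TPM and Hoxd8 at 134 TPM are the brightest cells, and every HOXC cell is at 0.10 TPM or less.

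Expression was concentrated in few genes. The summed HOX level was 794 ± 8.16 TPM (SD, n = 4) with dDAVP alone, and Hoxb7 held 30.6% of the sum over all libraries, Hoxb7 and Hoxd8 together 47.4%, and these with Hoxb9 56.7%. The 15 members over 10 TPM held 97.9%. HOXB took 55.7% of the sum with dDAVP alone, HOXD 29.2% and HOXA 15.04%, each with an SD between libraries under 1 percentage point.

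Among HOXB genes, Hoxb7, the collecting duct gene of the family, stood at 265.54, 246.49, 252.00 and 264.38 TPM with dDAVP alone. Its mean over all libraries exceeded that of 91.7% of the genes over 10 TPM. Hoxb9 followed at 67.4 ± 2.97 TPM, Hoxb2 at 46.6 ± 2.29 TPM and Hoxb6 at 38.4 ± 0.982 TPM (SD, n = 4 each). The mean levels of Hoxb7 and Hoxb9 are separated by far more than their SDs, and so are those of Hoxb9 and Hoxb2. Hoxb5 was at 15.8 ± 0.520 TPM and Hoxb13, far from the rest of its cluster and known for its role in the prostate, at 11.5 ± 0.752 TPM. Hoxb13 was the only member of groups 11 to 13 over 0.2 TPM in any library. Hoxb8, which lies between the 2 most abundant HOXB genes, reached only 0.94 to 1.78 TPM over the 8 libraries. Hoxb3 had a mean of 3.10 TPM and Hoxb4 of 1.78 TPM over all libraries, and Hoxb1, a hindbrain gene, did not exceed 0.16 TPM.

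In HOXD, Hoxd8 was second among all members at 134 ± 6.61 TPM with dDAVP alone. Hoxd9 (50.2 ± 2.50 TPM) and Hoxd10 (24.3 ± 1.58 TPM) came next, then Hoxd4 (14.8 ± 1.70 TPM) and Hoxd3 (8.98 ± 0.673 TPM), each with n = 4 and an SD. All 5 levels are apart by more than the SDs. Hoxd1, at the front end of the cluster, and Hoxd11, Hoxd12 and Hoxd13, which pattern limbs and the lower urogenital tract, did not exceed 0.14 TPM in any library, which left 5 HOXD genes at 8.21 TPM or more and 4 near 0.

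In HOXA, Hoxa9 (45.3 ± 2.02 TPM), Hoxa10 (30.5 ± 2.40 TPM), Hoxa7 (23.3 ± 0.747 TPM) and Hoxa5 (11.3 ± 0.596 TPM), with n = 4 and an SD, exceeded 10 TPM with dDAVP alone. Hoxa5 is known for its role in lung development, Hoxa9 for one in blood stem cells and Hoxa10 for one in the uterus. Means over all libraries were 3.08 TPM for Hoxa3, a gene of thymus and parathyroid formation, 3.03 TPM for Hoxa6, 2.27 TPM for Hoxa2 and 0.48 TPM for Hoxa4, the last just under the limit of 0.5 TPM. Hoxa11 and Hoxa13 did not exceed 0.08 TPM.

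The 9 HOXC genes were listed at 0 TPM in at least 1 library each, and the highest value of the cluster was 0.40 TPM, of Hoxc6 in the 4th tolvaptan library. The summed HOXC level was 0.20 to 0.29 TPM with dDAVP alone and 0.40 to 0.97 TPM with tolvaptan. The TPM table holds no read counts, so the depth behind these low values is unknown, and no fold is given for them.

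By paralog group, the summed means with dDAVP alone were 280 TPM for group 7, 163 TPM for group 9, 135 TPM for group 8, 54.8 TPM for group 10 and 48.3 TPM for group 2. Group 9 had 3 members over 10 TPM, whereas group 8 rested on Hoxd8 and group 2 on Hoxb2. Groups 1, 11 and 12 had no member over 10 TPM in any library, and group 3 had none with dDAVP alone. The 3 genes of group 11 (Hoxa11, Hoxc11 and Hoxd11) summed to 0.065 TPM with dDAVP alone.

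**Figure D2:**
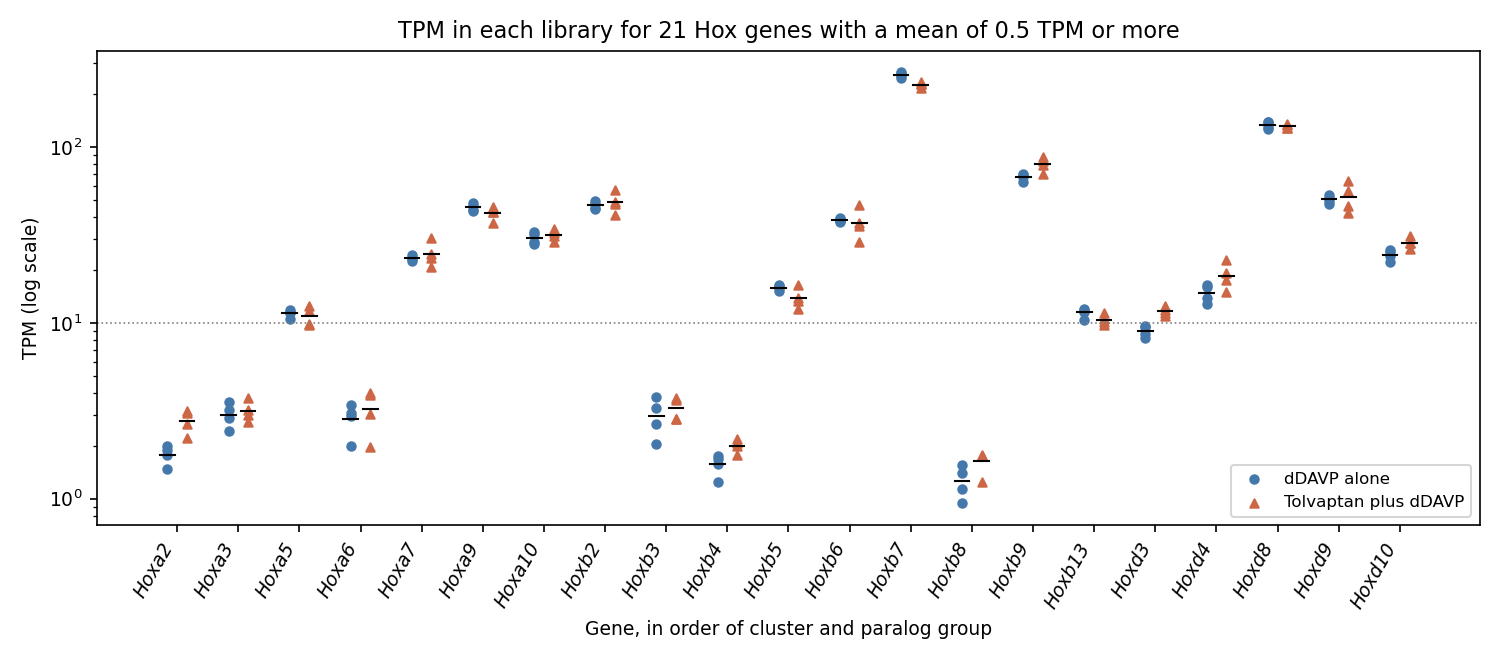
TPM (log axis) of 21 HOX genes with a mean of 0.5 TPM or more in each library, ordered by cluster and paralog group; circles are dDAVP alone, triangles are Tolvaptan plus dDAVP, black bars are group means and the dotted line is 10 TPM. Group means lie furthest apart for Hoxa2 (1.8 and 2.8 TPM). The widest scatter is that of Hoxa6 with tolvaptan (1.96 to 3.98 TPM), and among genes over 10 TPM that of Hoxb6 and Hoxd9 with tolvaptan.

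To ask whether blocking the V2 receptor altered this pattern, the groups were compared with limma on log2(TPM + 1). One fit held the 9943 genes over 10 TPM in at least 1 library, and the other the 14761 genes with a mean of 0.5 TPM or more. In the first fit Hoxb7 fell, and Hoxd3, Hoxb9 and Hoxd10 rose. This was 4 of 15 members (26.7%), while 16.1% of all genes in that fit were called, 6.10% lower and 10% higher. Hoxd3 entered this fit only through its tolvaptan libraries, the group in which it was higher, so its result is taken from the second fit and the counts of the first fit are a description. In the second fit Hoxb7 fell, Hoxd3 and Hoxa2 rose, and Hoxb9 and Hoxd10 missed the threshold, giving 3 of 22 members (13.6%) against 11.4% of all genes called (4.25% lower and 7.13% higher). Among all genes, rises made up 62.1% of the calls of the first fit, but 41.1% after the median of every library was made equal, and 47.4% when quantiles were made equal.

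Hoxb7, at the levels given above with dDAVP alone, stood at 232.69, 227.56, 227.40 and 215.95 TPM with tolvaptan. All 4 tolvaptan libraries lay below all 4 dDAVP alone libraries. The mean went from 257 ± 9.36 to 226 ± 7.07 TPM (SD, n = 4), a difference of -0.19 on the log2 scale by limma (95% interval -0.28 to -0.09, standard error 0.04, adjusted p = 0.0169). The second fit gave the same fold change with an adjusted p = 0.0189 from limma. The call was kept under 13 of 16 alternatives in the first fit. Of the fits without 1 library, it was lost without dDAVP alone replicate 1 or replicate 4 (adjusted p = 0.0531 from limma without replicate 4, and just past 0.05 without replicate 1).

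Hoxd3, the most forward of the expressed HOXD genes, had 8.61, 9.51, 9.57 and 8.21 TPM with dDAVP alone and 10.87, 12.47, 11.38 and 11.87 TPM with tolvaptan. The groups did not overlap. Its log2 fold change in the second fit, whose filter is on the mean of all libraries, was 0.34 (standard error 0.07, adjusted p = 0.0172 from limma). The call was kept under 12 of 17 alternatives. Of the fits without 1 library, it was lost without Tolvaptan plus dDAVP replicate 2 (adjusted p = 0.0559), dDAVP alone replicate 1 (adjusted p = 0.0570) or replicate 4 (adjusted p = 0.0527) by limma, and quantile normalization also ended it (adjusted p = 0.0525). In the mouse annotation GENCODE M21, 53.1% of the exonic bases of Hoxd3 are shared with Gm28230 on the same strand and 9.26% with Hoxd4. Gm28230 had 5.78 ± 0.543 TPM with dDAVP alone and 6.35 ± 0.996 TPM with tolvaptan (SD, n = 4, groups overlapping), so the split of reads between these models is uncertain. Hoxd3os1, an antisense transcript at a mean of 46.3 TPM, overlaps 8.28% of them, and the library kit does not mark strand.

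Hoxb9 had 67.83, 69.85, 68.91 and 63.16 TPM with dDAVP alone and 87.74, 83.03, 79.22 and 69.73 TPM with tolvaptan. Replicate 4 with tolvaptan fell just below the highest dDAVP alone library, and the other 3 were above. Limma gave a rise of 0.24 on the log2 scale (standard error 0.07, 95% interval 0.08 to 0.39), with an adjusted p = 0.0436 in the first fit and 0.0614 in the second. The call of the first fit was kept under 6 of 16 alternatives. It was lost when library medians or quantiles were made equal, and without a variance trend. Leaving out any 1 library except Tolvaptan plus dDAVP replicate 4 gave adjusted p-values of 0.0858 to 0.137 in the first fit by limma. Leaving out that replicate 4 gave 0.00556. Its neighbour Hoxb7 moved the other way, and the ratio of Hoxb9 to Hoxb7, chosen after their values were seen, was 0.24 to 0.28 with dDAVP alone and 0.32 to 0.38 with tolvaptan. Neither gene shares exonic bases with another gene model in GENCODE M21.

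Hoxd10, the last active gene of its cluster, had 25.15, 22.30, 23.82 and 25.90 TPM with dDAVP alone and 31.13, 28.31, 28.27 and 26.35 TPM with tolvaptan. The groups did not overlap, although the nearest libraries were within 0.5 TPM. Its log2 fold change of 0.22 (standard error 0.07) had an adjusted p = 0.0486 by limma in the first fit and 0.0637 in the second. The call of the first fit was kept under 2 of 16 alternatives, and leaving out any 1 library except Tolvaptan plus dDAVP replicate 4 gave adjusted p-values of 0.0704 to 0.130 by limma.

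Hoxa2, which shapes the second branchial arch, was tested in the second fit only. It had 1.88, 1.98, 1.77 and 1.48 TPM with dDAVP alone and 2.66, 3.13, 3.05 and 2.22 TPM with tolvaptan, without overlap. In limma the difference was 0.44 on the log2 scale (standard error 0.12, adjusted p = 0.0445), on a scale that understates the change of genes this low. The call was kept under 5 of 17 alternatives, and leaving out any 1 library except Tolvaptan plus dDAVP replicate 4 gave adjusted p-values of 0.0632 to 0.108 by limma. Of its exonic bases 15.04% are shared with Gm28308, which did not exceed 0.30 TPM.

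**Figure D3:**
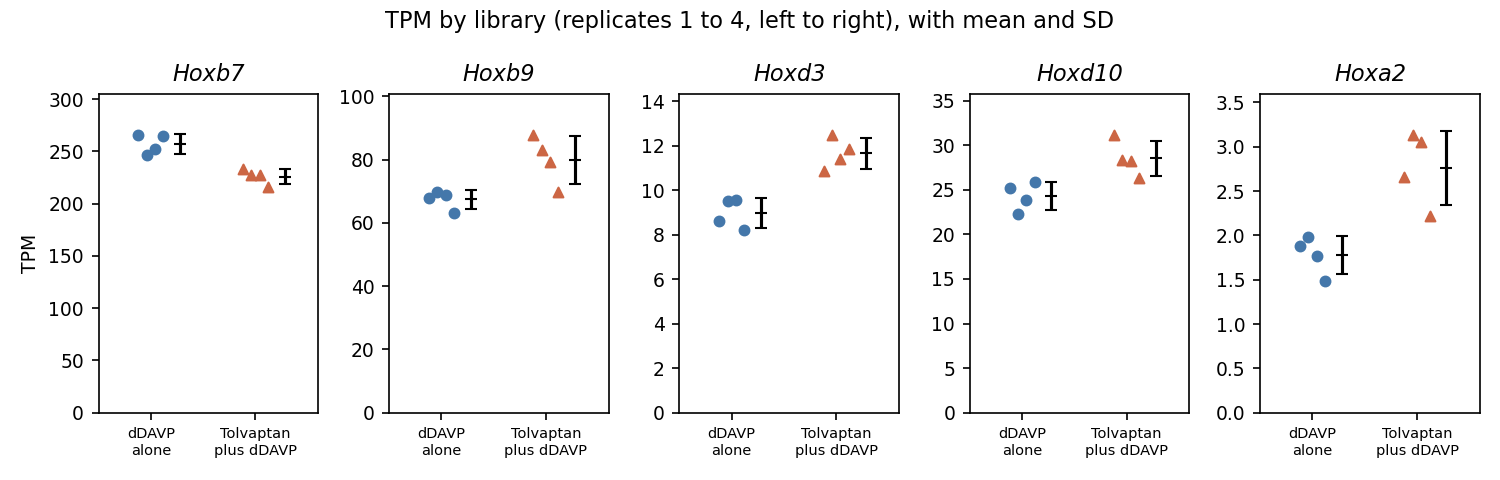
TPM of the 5 called HOX genes in each library, with replicates 1 to 4 from left to right in each group, axes from 0 and black bars for the mean and SD (n = 4). Hoxb7 is lower and the other 4 genes are higher with tolvaptan, with groups apart except for Hoxb9, whose lowest tolvaptan library (69.73 TPM) is below the highest dDAVP alone library (69.85 TPM).

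The other 11 members of the first fit were not called. Their log2 fold changes ran from -0.18 for Hoxb5 to 0.30 for Hoxd4, with adjusted p-values of 0.127 to 0.892 from limma and 95% intervals that together spanned -0.39 to 0.58. The most precise was Hoxd8, at 134 ± 6.61 TPM with dDAVP alone and 131 ± 3.19 TPM with tolvaptan, whose interval ran from -0.13 to 0.08 on the log2 scale. Hoxd4, a neighbour of Hoxd3, had 15.89, 12.82, 16.45 and 13.89 TPM with dDAVP alone and 17.46, 19.15, 14.92 and 22.71 TPM with tolvaptan. These groups overlapped, and its adjusted p was 0.127 from limma. Hoxb5 had 15.16 to 16.32 TPM with dDAVP alone and 12, 13.89, 13.30 and 16.33 TPM with tolvaptan, and without Tolvaptan plus dDAVP replicate 4, the high value, its adjusted p was 0.0257 by limma in place of 0.199.

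By cluster, 0 of the 4 HOXA genes of the first fit were called by limma. Of all genes in that fit 16.1% were called, 6.10% lower and 10% higher. With so few genes in each, the counts by cluster are a description and the clusters were not compared. Hoxa9 was at 41.9 ± 3.44 TPM with tolvaptan, Hoxa10 at 31.6 ± 2.22 TPM, Hoxa7 at 24.7 ± 4.01 TPM and Hoxa5 at 10.9 ± 1.34 TPM (SD, n = 4 each), with overlapping groups. In HOXB, 1 of 6 was lower and 1 of 6 higher, with Hoxb2 at 48.5 ± 6.61 TPM, Hoxb6 at 36.9 ± 7.41 TPM and Hoxb13 at 10.4 ± 0.744 TPM with tolvaptan and overlapping groups. In HOXD, Hoxd10 was called higher, Hoxd3 is described above, and Hoxd9, at 51.9 ± 9.87 TPM with tolvaptan, overlapped. The median log2 fold change was 0.03 over the 15 members and 0.05 over all 9943 genes.

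**Figure D4:**
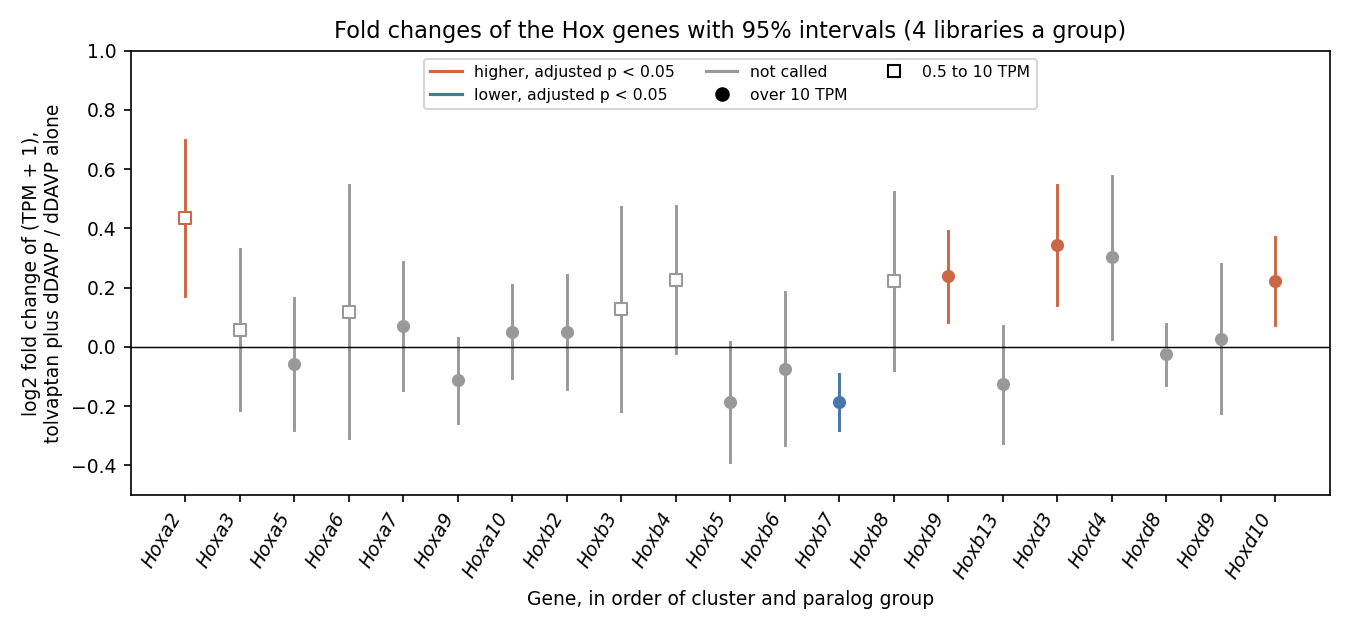
Log2 fold change of TPM + 1 (tolvaptan plus dDAVP over dDAVP alone) with 95% intervals from limma for 21 HOX genes, where circles come from the fit over genes above 10 TPM and open squares from the fit over genes with a mean of 0.5 TPM or more. Colour marks an adjusted p under 0.05. The circle of Hoxd3 is from a fit that it entered only through its tolvaptan libraries. Its call is therefore taken from the other fit (adjusted p = 0.0172 from limma). Hoxb7 (-0.19) is the one fall, Hoxa2 (0.44) and Hoxd3 (0.34) are the largest rises, and most intervals include 0.

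Without any test, the 2 groups did not overlap for 3 of the 15 members over 10 TPM (Hoxb7 below, Hoxd3 and Hoxd10 above). Over all genes in that fit the share was 23.1% (7.99% below and 15.1% above). Hoxd3 passed the filter of that fit only through its tolvaptan libraries, so this count is a description. Among the 22 members of the second fit they did not overlap for 5, against 20% of all genes (6.33% below and 13.7% above), the added genes being Hoxa2 and Hoxb4. Hoxb4 had 1.24 to 1.75 TPM with dDAVP alone and 1.77 to 2.18 TPM with tolvaptan (adjusted p = 0.219 from limma).

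Summed levels were described without a test. The HOX total was 785 ± 25.7 TPM with tolvaptan, with groups overlapping, and HOXA was at 119 ± 1.66 and 120 ± 4.64 TPM without and with tolvaptan (SD, n = 4). HOXD was at 232 ± 7.96 and 242 ± 13.7 TPM with overlapping groups. HOXB was at 435.75 to 450.57 TPM with dDAVP alone and at 406.52 to 431.58 TPM with tolvaptan, without overlap, and its share went from 55.7% to 53.9% of the HOX sum. Hoxb7 carries most of the HOXB sum. Single libraries moved the other sums: without Tolvaptan plus dDAVP replicate 4, the tolvaptan minus dDAVP difference was 4.47 TPM for HOXD and -1.96 TPM for HOXA, and without its replicate 3 that of the HOX total was 2.57 TPM, in place of -9.32 TPM.

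The scatter between libraries differed by level. The median coefficient of variation of the 15 members over 10 TPM was 4.95% with dDAVP alone and 9.56% with tolvaptan, larger with tolvaptan for 11 of 15. Over all 9943 genes it was 4.62% and 7.99%, larger with tolvaptan for 74.8%. Among the 7 members from 0.5 to 10 TPM it was 21.1% with dDAVP alone and 15.1% with tolvaptan, larger with tolvaptan for 2 of 7. Of the 22 members with a mean of 0.5 TPM or more, replicate 4 with tolvaptan was the highest of its group for 9 and the lowest for 5, and replicate 4 with dDAVP alone was the highest for 4 and the lowest for 9. Hoxb6, for one, was at 46.62 TPM beside 28.63 to 36.93 TPM in the other 3 tolvaptan libraries.

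Of the 7 TALE cofactors tested in the second fit, 2 rose, Pbx4 among them, and 0 fell. Over all genes of that fit, 7.13% were called higher and 4.25% lower, and this count is a description. Pbx4 had 8.14, 9.13, 7.86 and 11.37 TPM with dDAVP alone and 13.28, 13.20, 13.85 and 16.73 TPM with tolvaptan. The groups did not overlap (log2 fold change 0.60, standard error 0.12, adjusted p = 0.0137 from limma, called under 16 of 17 alternatives). Meis2 was at 14.6 ± 0.417 and 11.9 ± 1.39 TPM (SD, n = 4) and missed the threshold (log2 fold change -0.28, adjusted p = 0.0558 from limma). Pknox1, Pbx3 and Pbx2 had means of 48.2, 42.0 and 5.30 TPM over all libraries, Meis3 was at 10.3 to 14.8 TPM, and none of these 4 was called, and Meis1 and Pknox2 were at 0.32 TPM or less.

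Other genes within and beside the clusters were counted in the second fit, in which 11.4% of all genes were called. Of 7 tested noncoding genes of the HOX clusters, limma called 0. Hoxd3os1 was the most abundant at 47.3 ± 2.46 and 45.2 ± 4.75 TPM, then Hoxb5os at 12.9 ± 2.48 and 14.6 ± 1.22 TPM (SD, n = 4, without and with tolvaptan). Hotair, Hottip, Evx1 and Evx2 did not exceed 0.18 TPM, and 6 miRNA genes were listed at 0 in every library. No small RNA library is described, so the level of these miRNAs is unknown. Of 11 tested genes that flank the clusters, Hibadh, beside HOXA, fell (log2 fold change -0.24, adjusted p = 0.0263 from limma, called under 9 of 17 alternatives) and Skap1, beside HOXB, rose (log2 fold change 0.27, adjusted p = 0.0483 from limma, called under 2 of 17). Of 22 members with a mean of 0.5 TPM or more, 11 share exonic bases with another gene model and 8 with one on the opposite strand, Hoxb3 the most at 52.9% with Hoxb3os.

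Of 20 tested Polycomb genes 2 rose and 0 fell, and of 16 Trithorax and related genes 3 rose and 0 fell, beside 7.13% of all genes of that fit called higher and 4.25% lower. These counts are a description and are not read as a result about either group. Cbx2, a Polycomb subunit that binds chromatin, went from 25.9 ± 1.74 to 34.8 ± 4.10 TPM (SD, n = 4, log2 fold change 0.41, adjusted p = 0.0167 from limma), and Phc3 rose by 0.27 on the log2 scale (limma, adjusted p = 0.0340, called under 6 of 17 alternatives). Mllt3, a reader of acetylated and crotonylated histones in elongation complexes, went from 24.3 ± 1.13 to 31.3 ± 2.98 TPM (log2 fold change 0.35, adjusted p = 0.0154 from limma, n = 4). The H3K4 methylation genes Wdr5 (log2 fold change 0.17, adjusted p = 0.0423) and Kmt2a (0.33, adjusted p = 0.0439) were called by limma under 5 of 17 alternatives each. Among 10 tested genes that act upstream of HOX genes in embryos, Crabp2, a retinoic acid carrier, fell from 368 ± 13.6 to 190 ± 8.05 TPM (SD, n = 4, log2 fold change -0.95, adjusted p = 4.89e-06 from limma) and 0 rose. The CDX genes, which switch on HOX genes in the embryo, did not exceed 0.13 TPM, while the retinoic acid receptor genes Rarg and Rara were at 45.9 to 68.3 and 17.8 to 28.6 TPM.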

How the data were processed

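The 8 libraries were made with a SMARTer V4 and Nextera XT protocol and sequenced as 50 base paired reads. The authors used STAR for alignment (mouse genome of Ensembl release 106) and deposited the TPM that RSEM gave for each gene and library. Tool versions are not given in the sources used here. Read counts were not used, so depth is unknown and the DESeq2 test named in the methods was not run. Deposited minimum and maximum columns (other summary values of the authors) were not used, and no comparison of theirs was read.

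On log2(TPM + 1), limma 3.58.1 (R 4.3.3, eBayes with a trend, 2-sided, no pairing) compared the 2 groups over all genes kept, with Benjamini-Hochberg adjustment and a threshold of 0.05. The 2 filters were a maximum over 10 TPM and a mean of 0.5 TPM or more. SDs are between libraries on the TPM scale. Members and the 10 gene lists (163 of 167 symbols found) were chosen with earlier results of these data known. Every member is counted, and a few members and list genes are not reported by name here; of the list genes, most TALE cofactors, the 3 called genes with the smallest p of each list and up to 2 abundant markers came by rule. Named beyond it, after their values were seen, were other markers and called genes of the marker lists, noncoding genes, overlapping models, and the CDX and retinoic acid receptor genes. Promoters came from the RefSeq table (GRCm38.p6), exon overlaps from GENCODE M21 by stable ID; neither is the authors' build. In simulated data, 200 genes were changed. At 0.3 on the log2 scale, 44.0% of them were recovered by the first filter's fit and 14.5% by the second's, and 90.5% and 69.0% at 0.6. False calls were 8.33% and 0% of the calls at 0.3, and 7.65% and 6.12% at 0.6. The data had 1601 and 1680 genes called, many more than were changed there, so recovery in the data may differ. Alternatives were pseudocounts of 0.1 and 5, other filters, 2 scalings, 2 variance models, a replicate block and leaving out each library.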

Additional observations from a re-analysis of the deposited data

Results flagged for a closer look

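In groups of 4 libraries, a library stood apart from the other 3 by Dixon's criterion at its 95% critical value in 3 of 52 groups, where chance alone marks about 1 in 20. Hoxb8 was lowest in Tolvaptan plus dDAVP replicate 4, at 1.25 TPM beside 1.74 to 1.78 TPM. The same library was highest for the summed HOXA level, at 126.64 TPM beside 116.91 to 118.43 TPM, and for the summed HOXC level, at 0.97 TPM beside 0.40 to 0.47 TPM, which Hoxc6 (0.40 TPM) and Hoxc8 (0.21 TPM) mostly made up.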

How the results depend on the processing

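Counts of called HOX genes were small and changed with the processing, while no called member changed sign in any alternative. In the fit over genes above 10 TPM (1 lower, 3 higher), the higher count was 1 with libraries shifted to a common median, 1 without a variance trend and 0 after quantile normalization. In the fit over genes with a mean of 0.5 TPM or more (1 lower, 2 higher), the higher count was 1 with a common median, 1 with a filter at 0.1 TPM, 1 with no filter and 0 after quantile normalization, and the lower count was 0 with no filter. Leaving out 1 library gave 0 to 2 lower and 0 to 3 higher in the first fit, and 0 to 2 lower and 0 to 4 higher in the second. The highest counts came without Tolvaptan plus dDAVP replicate 4, and both counts were 0 without dDAVP alone replicate 1 or replicate 4. With the replicate number as a block, counts were 0 lower and 1 higher in the first fit and 0 and 0 in the second. Same-numbered libraries did not deviate together (correlations of -0.073 to -0.0046), so the values give no sign of pairs. The labels do not say whether the numbers mark matched cultures. The block ended the calls of Hoxb7, Hoxd3 and Hoxa2 in the second fit (adjusted p = 0.0792, 0.0593 and 0.0813 from limma) and those of Hoxb7, Hoxd3 and Hoxd10 in the first. Over all genes the block gave 396 lower and 515 higher calls in place of 607 and 994 in the first fit, and 342 and 362 in place of 627 and 1053 in the second. In the second fit rises were 62.7% of calls, 31.3% with a common median and 44.4% after quantile normalization. Of the uncalled members, 5 of 11 changed sign in at least 1 alternative of the first fit and 7 of 19 in the second. The tolvaptan minus dDAVP difference of summed TPM was -9.32 for all HOX genes and ran from -17.9 (without Tolvaptan plus dDAVP replicate 4) to 2.57 (without its replicate 3), and the HOXB difference stayed below 0. The cause of these shifts was not tested. The unknown depth, 4 libraries a group and the loss of strand limit the low genes and the overlapping models most.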
